A study of Mus musculus with 22 samples.

Results

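The mouse collagen genes are described here in inguinal white fat, across 2 genotypes and 2 housing temperatures. A gene was included when its array probe set carried a single symbol made of Col, a number, the letter a and a number, and for a gene with several the one with the highest mean was taken. This gave 44 genes from 47 probe sets, out of 22180 genes with a usable probe set. They were sorted by what their proteins build into 11 fibrillar chains, 6 basement membrane chains (all of type IV) and 27 others. The others were 6 type VI chains, 9 fibril-associated chains, 3 short-chain network formers, 4 transmembrane chains, 2 multiplexins (Col15a1, Col18a1) and 3 further genes (Col7a1, Col26a1, Col28a1). The grouping comes from general knowledge of the proteins and used no measured value.

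Every mouse was a male of 3 to 4 months, backcrossed onto C57BL/6J for more than 10 generations. All mice first spent 5 weeks at 28 °C, which is close to thermoneutral for a mouse. The cold groups then passed 1 week at 21 °C and 10 days at 5 °C, whereas the others remained at 28 °C. The groups were 5 PPARα-null mice at 5 °C, 6 PPARα-null mice at 28 °C, 5 wild-type mice at 5 °C and 6 wild-type mice at 28 °C, each on 1 array. The null mice lack PPARα, a nuclear receptor for fatty acids, from the germline and in every tissue, so that an effect in fat need not start there. From 10 mice housed per group, the sources used here do not say how the arrayed ones were picked. Values are log2 signals of Affymetrix whole-transcript arrays, on which the total RNA of the tissue was labelled. A value can be followed across mice for 1 gene, but the levels of different genes cannot be set against each other.

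Collagens are built from 3 chains wound into a triple helix. Types I, III and V form the fibrils that give tissue its tensile strength, with type V at the core of the fibril setting its diameter. Type IV forms the sheet-like basement membrane that surrounds every adipocyte, vessel and nerve, and type VI forms beaded filaments close to fat cells. In fat, fibroblasts and adipocyte precursors make most of the fibrillar chains, while endothelial cells, mural cells and adipocytes make type IV.

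Across the libraries, array-to-array correlations lay between 0.966 and 0.990 and array medians between 4.16 and 4.25. Ucp1, the uncoupling protein of heat-producing fat, averaged 12.45 ± 0.13 in cold null mice against 5.55 ± 0.66 in null mice at 28 °C, and 12.40 ± 0.08 in cold wild-type mice against 5.35 ± 0.47 at 28 °C (SD over 5 cold and 6 warm mice per genotype). Ppara's probe set gave 6.30 ± 0.56 in cold null mice and 6.59 ± 0.34 in cold wild-type mice, so it does not check the genotype labels, and the sources used here do not say which part of the gene it reads. The fat cell markers Adipoq, Plin1 and Fabp4 were bright in all 4 groups, with group means of at least 9.84.

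In the cold, chains of the large fibrils (types I, III and V) and of the type VI filaments fell, in null and in wild-type mice. In null mice 13 of the 44 genes were lower at 5 °C and 0 higher (limma, adjusted p under 0.05 over all genes), where 13.2% of all genes were called, 6.33% lower and 6.88% higher. In wild-type mice 14 were lower and 0 higher, where 16.7% of all genes were called, 8.3% lower and 8.35% higher. Of these, 12 genes were called lower in both genotypes, which is 92.3% of the null list and 85.7% of the wild-type list: Col1a1, Col1a2, Col3a1, Col5a1, Col5a2, Col6a1, Col6a2, Col6a3, Col6a6, Col14a1, Col16a1 and Col18a1. The average of both cold effects called 17 genes lower and 1 higher (Col27a1), where 24.8% of all genes were called, 13.1% lower and 11.7% higher. In whole-tissue RNA such as this, fewer cells of a type and less RNA per cell cannot be told apart.

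The class medians of the cold effect depended on whether dim genes were counted, and many collagen genes were dim in this fat. The median log2 cold effect over all 44 genes was -0.19 in null mice and -0.13 in wild-type mice, against medians within 0.01 of 0 over all genes tested. By class, the median in null mice was -0.12 for fibrillar, -0.29 for basement membrane and -0.19 for other collagens. In wild-type mice it was -0.02 for fibrillar (-0.14 to 0.07 with 1 array left out), -0.18 for basement membrane and -0.13 for other collagens. With the dimmest 50% of all genes left out, the medians were -0.62 in null and -0.59 in wild-type mice for 7 fibrillar genes, -0.14 and -0.06 for 2 basement membrane genes (Col4a1 and Col4a2), and -0.31 and -0.41 for 11 others. The fibrillar median was thus the nearest to 0 of the 3 classes over all genes and the farthest from 0 over the brighter ones. The fibrillar median lies between 5 genes that fell strongly and 6 that were not called in either genotype, 4 of the 6 being in the dimmer 50% of all genes (mean below 4.67). In all, 24 of the 44 collagen genes lay in that dimmer 50%, and 3 of them were called in the average cold effect, against 15 of the 20 in the brighter 50%. In the brighter 50% of all genes 43.0% were called (4772 of 11090), where 24.8% of all genes were (5499 of 22180). The share in the dimmer 50% of all genes is not given here. These counts hold both directions, and the 15 include Col27a1, which was higher.

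**Figure D1:**
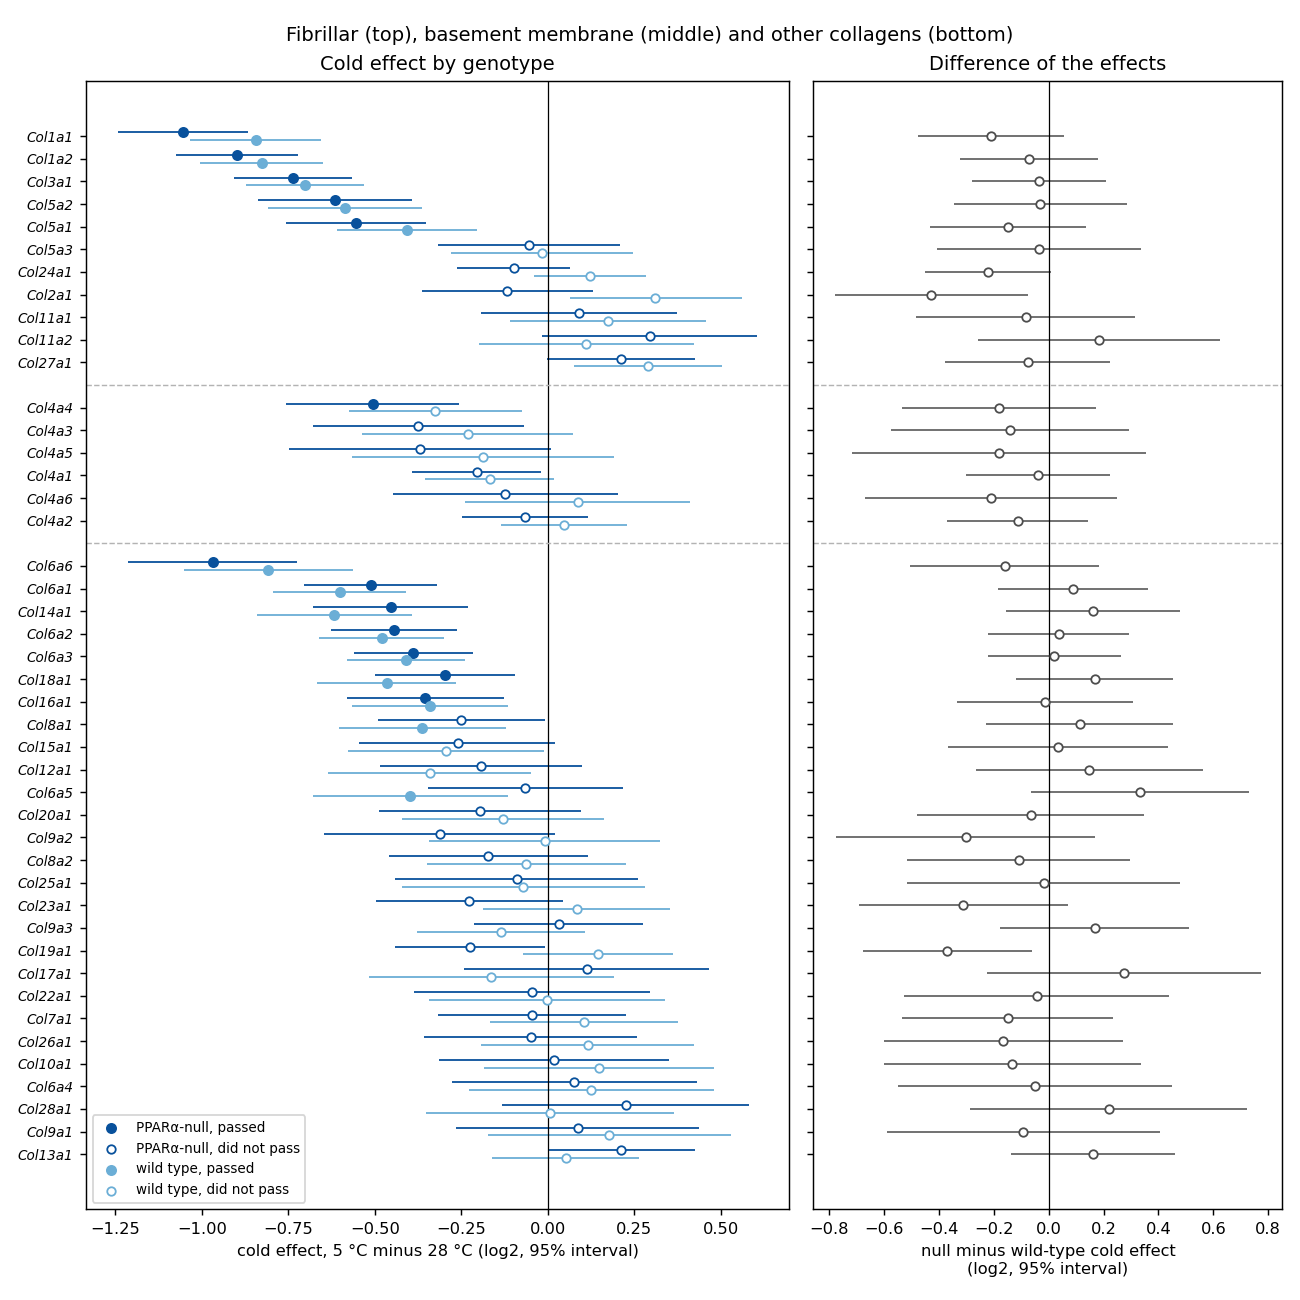
Log2 cold effects (5 °C minus 28 °C) of the 44 collagen genes with 95% intervals from the limma fit, in PPARα-null and wild-type mice (left), and their difference, null minus wild type (right), with fibrillar genes at the top, then basement membrane and other collagens; filled points passed at an adjusted p under 0.05. Types I, III, V (α1, α2) and VI (α1, α2, α3, α6) lie below 0 in both genotypes, from -1.05 for Col1a1 to -0.39 for Col6a3, both in null mice, and no point on the right is filled.

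Col1a1 and Col1a2 encode the 2 chains of type I collagen, the main fibril of connective tissue. Col1a1 (chromosome 11) read 9.71, 9.64, 9.46, 9.67 and 9.67 in the 5 cold null mice, and 10.42, 10.70 and 10.94 as the lowest, median and highest of null mice at 28 °C. It read 9.81, 9.74, 9.77, 9.64 and 9.47 in the 5 cold wild-type mice, against 10.40, 10.51 and 10.80 as the lowest, median and highest at 28 °C. Every cold mouse lay below every mouse at 28 °C in both genotypes. Its log2 cold effect was -1.05 ± 0.09 (SE) in null mice (adjusted p = 4.54e-08), a ratio of 0.481, and -0.84 ± 0.09 in wild-type mice (adjusted p = 6.73e-07), a ratio of 0.557. By point estimate these were the largest decreases among the 44 genes in each genotype.

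Col1a2 (chromosome 6) read 9.63, 9.55, 9.31, 9.37 and 9.55 in cold null mice, against 10.21, 10.40 and 10.57 (lowest, median, highest) in null mice at 28 °C. In cold wild-type mice it read 9.58, 9.56, 9.71, 9.45 and 9.39, against 10.26, 10.30 and 10.62 at 28 °C. The groups were again fully apart. Its effect was -0.90 ± 0.09 in null mice (adjusted p = 1.62e-07) and -0.83 ± 0.09 in wild-type mice (adjusted p = 3.78e-07). A second probe set of Col1a2 gave -0.89 in null and -0.77 in wild-type mice.

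Col3a1 (chromosome 1), the single chain of type III collagen, which co-assembles with type I in soft tissue, read 10.27, 10.09, 9.84, 9.98 and 10.14 in cold null mice, against 10.59, 10.81 and 10.94 (lowest, median, highest) in null mice at 28 °C. In cold wild-type mice it read 10.02, 10.14, 10.16, 10.14 and 9.97, against 10.59, 10.79 and 10.97 at 28 °C. No cold mouse reached the lowest mouse at 28 °C. The effect was -0.74 ± 0.08 in null mice (adjusted p = 1.55e-06) and -0.70 ± 0.08 in wild-type mice (adjusted p = 2.38e-06).

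**Figure D2:**
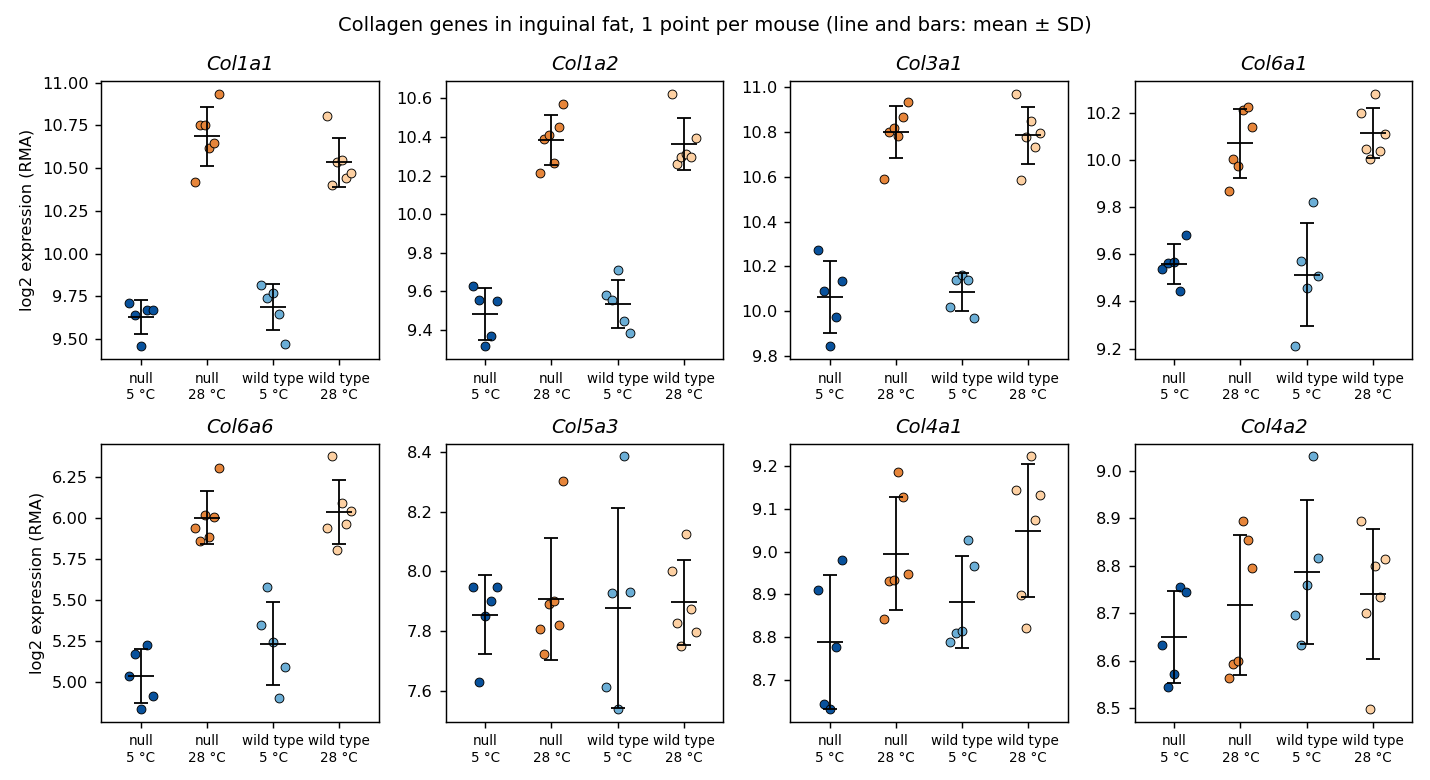
Log2 signal per mouse (points) with the group mean and SD (bars) for 8 collagen genes, with cold mice left of mice at 28 °C in each genotype and a separate y axis for each gene. Col1a1, Col1a2, Col3a1, Col6a1 and Col6a6 separate fully by temperature in both genotypes, whereas Col5a3, Col4a1 and Col4a2 overlap.

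The stretch just upstream of an annotated start of the gene is shown, so that it can be read beside the values. It is given for 4 genes that fell in both genotypes and for Col5a3, a fibrillar gene that was not called. Each is the 150 bases before the start of the promoter window, 5′ to 3′ on the gene's own strand, from RefSeq on GRCm38.p6. That start can lie inside the full RefSeq extent of the gene. For Col6a6 it is 105828085, where the gene reaches 105828246, so the whole stretch lies inside the gene. For Col5a3 it is 20815067, where the gene reaches 20815117, so a part of the stretch does. Col1a2 lies at chr6:4505468-4505617 on the plus strand, Col3a1 at chr1:45311388-45311537 on the plus strand, Col6a1 at chr10:76726045-76726194 on the minus strand, Col6a6 at chr9:105828086-105828235 on the minus strand and Col5a3 at chr9:20815068-20815217 on the minus strand. Capitals mark matches to the motifs searched, each in the given letters or their reverse complement: the CCAAT box, the TATA box with the letters TATAAA, and the GC box with the letters GGGCGG.
Col1a2: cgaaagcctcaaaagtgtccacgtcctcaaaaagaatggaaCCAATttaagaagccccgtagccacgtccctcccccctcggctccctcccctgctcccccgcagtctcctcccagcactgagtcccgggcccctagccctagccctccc
Col3a1: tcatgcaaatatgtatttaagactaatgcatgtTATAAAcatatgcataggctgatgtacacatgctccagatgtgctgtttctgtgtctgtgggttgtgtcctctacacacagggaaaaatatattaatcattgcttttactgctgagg
Col6a1: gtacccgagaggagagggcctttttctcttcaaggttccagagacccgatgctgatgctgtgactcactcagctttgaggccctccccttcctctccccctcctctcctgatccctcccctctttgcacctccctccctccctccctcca
Col6a6: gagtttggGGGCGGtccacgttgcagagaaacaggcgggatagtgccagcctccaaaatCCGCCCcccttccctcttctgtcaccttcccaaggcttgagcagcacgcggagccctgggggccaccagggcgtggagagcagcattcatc
Col5a3: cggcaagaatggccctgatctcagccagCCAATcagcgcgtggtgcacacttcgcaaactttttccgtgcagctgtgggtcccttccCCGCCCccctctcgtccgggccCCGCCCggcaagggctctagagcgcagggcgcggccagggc
Col1a2 held a CCAAT box with its first base at -109, counted from the start, and Col5a3 held one at -122. Col3a1 held a TATA box at -117. Col6a6 held GC boxes at -142 and -91, and Col5a3 held them at -63 and -41. Col6a1 held none of the motifs, in its printed stretch or in the 250 bases before its start. Within its own 250 bases Col1a2 also held a GC box, but not in the stretch printed. RefSeq windows were matched for 35 of the 44 genes, 38 windows in all, and searched over 250 bases before the start. The CCAAT box was in 34.2% of collagen windows against 33.8% of all 32851 windows, the TATA box in 13.2% against 12.4%, and the GC box in 57.9% against 32.7%. These are letter matches only, and no binding was measured.

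Type V collagen divided by chain. Col5a1 (chromosome 2), which pairs with Col5a2 in the usual type V molecule, read 7.53, 7.28, 7.09, 6.96 and 7.21 in cold null mice, against 7.72, 7.75 and 7.90 (lowest, median, highest) in null mice at 28 °C. In cold wild-type mice it read 7.03, 7.26, 7.27, 7.48 and 7.08, against 7.44, 7.62 and 7.84 at 28 °C, where 1 cold mouse overlapped the warm group. On the log2 scale it fell by 0.56 ± 0.10 (SE) in null mice (adjusted p = 0.000336) and by 0.41 ± 0.10 in the wild type (adjusted p = 0.00492). A second, much dimmer probe set of Col5a1 gave -0.13 in both genotypes and was not called.

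Col5a2 (chromosome 1) fell by 0.62 ± 0.11 (SE) on the log2 scale in null mice (adjusted p = 0.000313) and by 0.59 ± 0.11 in wild-type mice (adjusted p = 0.000428). It read 6.69 to 7.18 in cold null mice, against 7.09 to 7.75 in null mice at 28 °C, with an overlap, and 6.85 to 7.13 in cold wild-type mice, against 7.32 to 7.66 at 28 °C, with none. Col5a3 (chromosome 9), another type V chain, of narrower tissue range, read 7.95, 7.63, 7.85, 7.90 and 7.95 in cold null mice, against 7.72, 7.86 and 8.30 (lowest, median, highest) in null mice at 28 °C. In cold wild-type mice it read 7.61, 7.93, 7.54, 8.38 and 7.93, against 7.75, 7.85 and 8.13 at 28 °C. Its groups overlapped throughout, with effects of -0.05 (95% interval -0.32 to 0.21) in null and -0.02 (-0.28 to 0.25) in wild-type mice. Those intervals exclude decreases as large as the ones estimated for Col5a1 and Col5a2.

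None of the remaining fibrillar genes was called lower. Col27a1, a fibrillar chain known from cartilage, read 5.14, 5.30, 4.96, 5.43 and 4.80 in cold null mice, against 4.83, 4.88 and 5.11 (lowest, median, highest) in null mice at 28 °C. In cold wild-type mice it read 5.02, 4.96, 5.25, 5.07 and 5.05, against 4.59, 4.78 and 5.00 at 28 °C. The groups overlapped, and neither genotype alone passed (0.21, adjusted p = 0.208 in null, and 0.29, adjusted p = 0.0574 in wild-type mice). The average of the 2 effects was 0.25 ± 0.07 (adjusted p = 0.0128), so Col27a1 was the collagen gene that rose. Col2a1, Col11a1, Col11a2 and Col24a1, of which Col2a1 and the type XI chains build cartilage fibrils, were dim and not called, with effects of -0.12, 0.09, 0.29 and -0.10 in null mice and 0.31, 0.17, 0.11 and 0.12 in wild-type mice. The 8 cartilage markers measured had mean signals of 2.99 to 3.44 in every mouse, and 1 of them was called in null mice (Sox9, lower) and 0 in wild-type mice; their part in the values of the cartilage-type collagens was not tested.

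Among basement membrane chains the pair that makes most basement membranes moved little. Col4a1 (chromosome 8) read 8.91, 8.64, 8.63, 8.78 and 8.98 in cold null mice, against 8.84, 8.94 and 9.19 (lowest, median, highest) in null mice at 28 °C. In cold wild-type mice it read 8.79, 8.81, 8.81, 9.03 and 8.97, against 8.82, 9.10 and 9.22 at 28 °C. The groups overlapped, with effects of -0.21 ± 0.09 (SE) in null (adjusted p = 0.152) and -0.17 ± 0.09 in wild-type mice (adjusted p = 0.228). The average effect of -0.19 ± 0.06 was called (adjusted p = 0.0332), but that call was lost in 10 of 22 fits that each left out 1 array, with an adjusted p of at most 0.0662.

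Col4a2, the partner chain, read 8.63, 8.54, 8.57, 8.76 and 8.74 in cold null mice, against 8.56, 8.70 and 8.89 (lowest, median, highest) in null mice at 28 °C. In cold wild-type mice it read 8.70, 8.63, 8.76, 9.03 and 8.82, against 8.50, 8.77 and 8.89 at 28 °C. The groups overlapped fully. Its effect was -0.07 (95% interval -0.25 to 0.12) in null and 0.05 (-0.14 to 0.23) in wild-type mice. The promoter window starts of Col4a1 and Col4a2 lie on opposite strands of chromosome 8, 21 bases apart, so that the windows around them overlap. The full RefSeq extent of Col4a1 reaches 11312889, past its window start at 11312826.

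The chains Col4a3, Col4a4 and Col4a5, known for the filtering membrane of the kidney, were dim in fat. Col4a4 (chromosome 1) read 4.57, 4.50, 4.05, 4.01 and 3.85 in cold null mice, and 4.57, 4.68 and 4.96 as the lowest, median and highest of null mice at 28 °C, so the highest cold null mouse met the lowest warm one. In cold wild-type mice it read 4.34, 4.41, 4.14, 4.17 and 3.95, against 4.37, 4.50 and 4.70 at 28 °C. It fell by 0.51 on the log2 scale in null mice (adjusted p = 0.0058), was -0.33 in wild-type mice (adjusted p = 0.0689), and fell by 0.42 on average (adjusted p = 0.000742). Col4a3 was -0.37 in null and -0.23 in wild-type mice and passed in the average alone (-0.30, adjusted p = 0.0365), a call lost in 11 of 22 fits without 1 array. Col4a5 (-0.37 and -0.19) and Col4a6 (-0.12 and 0.09) were not called. All basement membrane chains except Col4a1 and Col4a2 thus lay in the dimmer 50% of the genes.

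Type VI collagen, the beaded filament around fat cells, fell by a moderate amount in all 3 of its classic chains. Col6a1 (chromosome 10) read 9.54, 9.56, 9.57, 9.45 and 9.68 in cold null mice, against 9.87, 10.07 and 10.23 (lowest, median, highest) in null mice at 28 °C. In cold wild-type mice it read 9.21, 9.57, 9.46, 9.82 and 9.51, against 10.01, 10.08 and 10.28 at 28 °C. The groups did not overlap, and Col6a1 fell by 0.51 ± 0.09 (SE) in null mice (adjusted p = 0.00048) and by 0.60 ± 0.09 in wild-type mice (adjusted p = 6.62e-05), on the log2 scale. Its second probe set gave -0.43 and -0.41.

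Col6a2 fell by 0.44 on the log2 scale in null mice (adjusted p = 0.00112) and by 0.48 in the wild type (adjusted p = 0.000398). Col6a3, whose cleaved end is the signalling fragment endotrophin, fell by 0.39 in null mice (adjusted p = 0.00231) and by 0.41 in wild-type mice (adjusted p = 0.0011). Cold and 28 °C mice did not overlap for either gene in either genotype: Col6a2 spanned 8.01 to 8.38 in cold null mice, against 8.58 to 8.87 in null mice at 28 °C, and 8.16 to 8.55 in cold wild-type mice, against 8.58 to 8.93 at 28 °C. Col6a3 spanned 8.41 to 8.67 in cold null mice, against 8.74 to 9.17 in null mice at 28 °C, and 8.33 to 8.59 in cold wild-type mice, against 8.72 to 9.01 at 28 °C.

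Of the later type VI chains, which can stand in for the α3 chain, Col6a6 (chromosome 9) had a cold effect close to that of type I. It read 5.04, 5.17, 4.83, 5.23 and 4.91 in cold null mice, against 5.86, 5.97 and 6.31 (lowest, median, highest) in null mice at 28 °C. In cold wild-type mice it read 5.34, 5.58, 5.24, 4.90 and 5.09, against 5.81, 6.01 and 6.38 at 28 °C. The groups were apart in both genotypes, and the effects were -0.97 ± 0.12 in null (adjusted p = 4.2e-06, a ratio of 0.511) and -0.81 ± 0.12 in wild-type mice (adjusted p = 3.36e-05, a ratio of 0.571). Col6a5, its neighbour on chromosome 9 and dim, was -0.07 in null mice (adjusted p = 0.836) and -0.40 in wild-type mice (adjusted p = 0.0481). That wild-type call was lost in 16 of 22 fits without 1 array, and the difference between genotypes was 0.33 (95% interval -0.07 to 0.73), which was not called. Col6a4 was dim and not called, at 0.08 and 0.12.

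Among the fibril-associated collagens, which sit on the surface of fibrils, Col14a1 read 6.53 to 6.88 in cold null mice, against 6.91 to 7.51 in null mice at 28 °C, and 6.28 to 6.81 in cold wild-type mice, against 7.07 to 7.33 at 28 °C. It fell by 0.45 on the log2 scale in null mice (adjusted p = 0.00571) and by 0.62 in wild-type mice (adjusted p = 0.000266), with no overlap. Col16a1 fell by 0.35 in null mice (adjusted p = 0.0328) and by 0.34 in wild-type mice (adjusted p = 0.0338), a small change in a dim gene. Its call was lost in 5 fits without 1 array in null mice and in 7 in wild-type mice, with an adjusted p of at most 0.0961 and 0.113. On average Col16a1 fell by 0.35 (adjusted p = 0.00156), a call kept in each fit without 1 array. The remaining 7 genes of that group, Col9a1, Col9a2, Col9a3, Col12a1, Col19a1, Col20a1 and Col22a1, were not called in any comparison.

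The multiplexins are basement-membrane-associated collagens whose ends are cut into fragments such as endostatin, from Col18a1. Col18a1 fell by 0.30 on the log2 scale in null mice (adjusted p = 0.0454) and by 0.47 in the wild type (adjusted p = 0.00148). The null call was lost in 15 of 22 fits without 1 array, with an adjusted p of at most 0.145. On average Col18a1 fell by 0.38 (adjusted p = 0.000193), a call kept in each fit without 1 array. It spanned 5.73 to 6.06 in cold null mice, against 6.20 to 6.47 in null mice at 28 °C, and 5.64 to 6.30 in cold wild-type mice, against 6.27 to 6.56 at 28 °C, where 1 cold mouse overlapped. Col15a1, a marker of vessel and fat basement membranes, was -0.26 and -0.29 and passed in the average alone (-0.28, adjusted p = 0.0381; lost in 11 of 22 fits without 1 array). Col8a1, a short-chain network former of vessel walls, was -0.25 in null mice (adjusted p = 0.186) and fell by 0.36 in wild-type mice (adjusted p = 0.0337). That call was lost without cold wild-type replicates 1 or 4 or 28 °C wild-type replicates 1 or 4, with an adjusted p of at most 0.109. On average Col8a1 fell by 0.31 (adjusted p = 0.00737), a call kept in each fit without 1 array. The transmembrane genes Col13a1, Col17a1, Col23a1 and Col25a1, and Col7a1, Col8a2, Col10a1, Col26a1 and Col28a1, were not called in any comparison.

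Whether chains of types I and III fell more than Col4a1, Col4a2 or Col6a1 was asked within each mouse, as a log2 ratio. Its absolute level has no meaning, and the size of its change can depend on the probe set. Those of Col1a2 gave close changes and those of Col5a1 unlike ones. Other chains of types IV and VI were not compared in this way, and the cold effect of Col6a6 was close to that of type I. The ratio of Col1a1 to Col4a1 averaged 0.84 ± 0.11 in cold null mice and 1.69 ± 0.21 in null mice at 28 °C, and 0.81 ± 0.23 in cold wild-type mice and 1.48 ± 0.17 in the wild-type group kept at 28 °C (SD over 5 cold and 6 warm mice). It was lower by 0.85 in cold null mice and by 0.68 in cold wild-type mice, without overlap. The Col1a2 to Col4a2 ratio changed by -0.83 in null and -0.87 in wild-type mice, and that of Col3a1 to Col4a1 by -0.53 in both. Each of these had a two-sided exact permutation p of 0.00216, the smallest that all splits of the mice allow, and 0.00247 after adjustment over 8 tests. The ratio of Col1a1 to Col6a1 changed by -0.54 in null mice, with the same p. In wild-type mice the difference was -0.24 (exact permutation p = 0.11). There 1 cold mouse had a ratio of 0.60, level with the highest mouse at 28 °C.

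**Figure D3:**
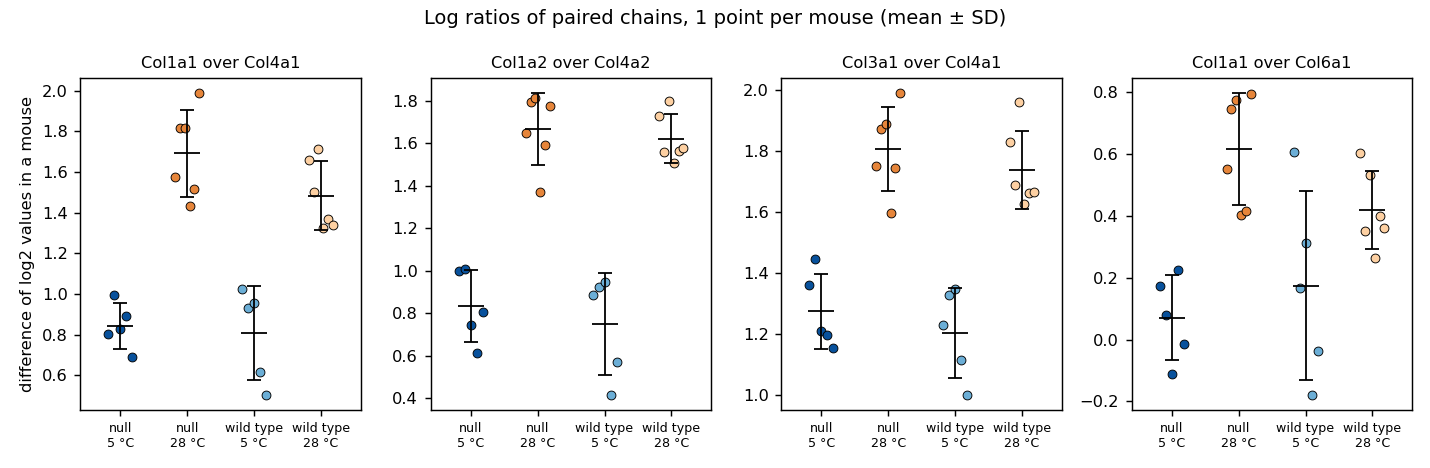
Log2 ratios of pairs of collagen chains within each mouse (points) with mean and SD, cold mice left of mice at 28 °C in each genotype; the y axis is a difference of log2 signals. Cold mice lie below all mice at 28 °C in each panel except Col1a1 over Col6a1 in wild-type mice, where the ranges of -0.18 to 0.60 and 0.26 to 0.60 overlap.

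Within the groups, Col1a1 varied together with Col1a2 and Col3a1 from mouse to mouse, and Col4a1 with Col4a2. After the group means were removed, Col1a1 correlated with Col1a2 over 22 mice at r = 0.844 (permutation p = 1e-05, the smallest that the 100000 permutations can give; adjusted 2.5e-05) and rho = 0.796 (adjusted permutation p = 5e-05). Without the 2 mice farthest from the median, r was 0.776. Col1a1 correlated with Col3a1 at r = 0.773 (adjusted permutation p = 0.000117) and rho = 0.689 (0.00133), and at r = 0.670 without those 2 mice. Col4a1 correlated with Col4a2 at r = 0.820 (adjusted permutation p = 2.5e-05) and rho = 0.817 (5e-05), and at r = 0.798 without the 2 farthest.

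For Col1a1 with Col4a1 and with Col6a1, the only pairs between classes that were computed, the coefficients were near 0. Col1a1 and Col4a1 had r = 0.113 (permutation p = 0.643) and rho = 0.091 (permutation p = 0.701), and Col1a1 and Col6a1 had r = 0.082 (permutation p = 0.745) and rho = -0.015 (permutation p = 0.953). Without the 2 farthest mice these were -0.098 and -0.17. These 5 relations were all that were computed, and all probe sets of a mouse share 1 array.

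No collagen gene was called for a cold response that differed between the genotypes. For the difference of the cold effects (null minus wild type), 0 of the 44 genes were called and 0% of all genes. The differences ranged from -0.43 (Col2a1) to 0.33 (Col6a5), no adjusted p was below 0.963, and unadjusted p under 0.05 was met by 2 genes (Col2a1 and Col19a1), where 5.13% of all genes met it. All 44 intervals lay within 1 log2 unit of 0. The lowest bound was -0.78 (Col2a1) and the highest 0.77 (Col17a1), and the widest interval was that of Col4a5, from -0.72 to 0.35. For Col1a1 the difference was -0.21, with an interval of -0.48 to 0.06, so a null effect smaller than the wild-type one by more than 0.06 lies outside it.

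No collagen gene was called between the genotypes at either temperature. At 28 °C null minus wild type was between -0.29 (Col13a1) and 0.29 (Col2a1), with 0 collagen genes called where 0.194% of all genes were. The smallest adjusted limma p was 0.453, for Col13a1, where every null mouse lay below every wild-type mouse. An unadjusted p under 0.05 was met by 3 genes. The share of all genes meeting it is not given here for either temperature. At 5 °C null minus wild type was between -0.22 (Col24a1) and 0.21 (Col6a5), with 0 called where 0.149% of all genes were. The smallest adjusted limma p there was 0.586, and 1 gene had an unadjusted p under 0.05. Col2a1, Col14a1 and Col22a1 lie on chromosome 15, which also carries Ppara, and none of them was called. Over all 44 genes the lowest and highest bounds of the intervals were -0.59 and 0.53 at 28 °C and -0.57 and 0.51 at 5 °C.

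The genes that make, trim and hold collagen were described from lists, with counts in place of a list test. The counts stand beside 6.33% of all genes called lower in null mice and 8.3% in wild-type mice, and 13.1% in the average, where 43.0% of the brighter 50% of genes were called in either direction. Of the 18 measured genes of chain modification and folding in the endoplasmic reticulum, 11 fell in null mice and 7 in wild-type mice, with 0 higher and medians of -0.28 and -0.25. They included Creb3l1, a transcription factor that switches on collagen genes (-0.68 in null, -0.66 in wild type), the prolyl hydroxylase chains P4ha1 (-0.37, -0.48) and P4hb (-0.30, -0.37), and the prolyl isomerase Ppib (-0.23, -0.31). Of 11 genes of propeptide cleavage and crosslinking, 6 fell in null mice and 4 in wild-type mice, with 0 higher and medians of -0.32 and -0.13. Bmp1, the protease that cuts the type I propeptide (-0.64, -0.50), its enhancers Pcolce (-0.36, -0.48) and Pcolce2 (-0.48, -0.62), and Tll1, a relative of Bmp1 (-0.61, -0.40), led this list. Adamts3, another propeptide protease, rose on average (0.26, adjusted p = 0.0303).

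Proteins that lie on or in the fibril had the largest share of decreases among these 6 lists. Of 15 measured, 12 fell in null mice and 12 in wild-type mice, with 0 higher and medians of -0.45 and -0.52. Examples were fibronectin Fn1 (-0.87 in null, -0.94 in wild type), the small proteoglycans Ogn (-0.84, -0.86) and Dcn (-0.41, -0.48), and Abi3bp (-0.45, -0.75). Postn, periostin, rose on average (0.28, adjusted p = 0.0162). Among 14 basement membrane partners 5 fell in null mice and 6 in wild-type mice, with 0 higher and medians of -0.28 and -0.26. These were laminin chains in the main, Lama3 (-0.71, -0.94), Lamb2 (-0.50, -0.58), Lamc1 (-0.49, -0.47) and Lama2 (-0.47, -0.56), while Hspg2, perlecan, and Agrn, agrin, were not called.

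Receptors and breakdown enzymes were lower in part. Of 10 collagen receptors, 2 fell in null and 3 in wild-type mice, with 0 higher and medians of -0.18 and -0.25. Ddr2, a receptor kinase for fibrillar collagen, changed by -0.54 in null and -0.52 in wild-type mice, and Mrc2, which takes up collagen fragments, by -0.52 and -0.40. Itga2, the chain of a collagen-binding integrin, fell by 0.47 in wild-type mice and was -0.15 in null mice. Of 10 breakdown genes, 5 fell in each genotype, with 0 higher and medians of -0.28 and -0.23. The gelatinase Mmp2 (-0.64, -0.64), its activator Mmp14 (-0.40, -0.47), and Ctsk (-0.42, -0.68) and Mmp9 (-0.43, -0.67) were lower, and Pepd, which splits proline dipeptides, rose on average (0.17, adjusted p = 0.0238). No gene of these 6 lists was called by limma for the difference between genotypes. An unadjusted limma p under 0.05 was met by 6 of the 78 genes, where 5.13% of all genes met it. Decreases were thus counted in the lists of synthesis and of breakdown alike.

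**Figure D4:**
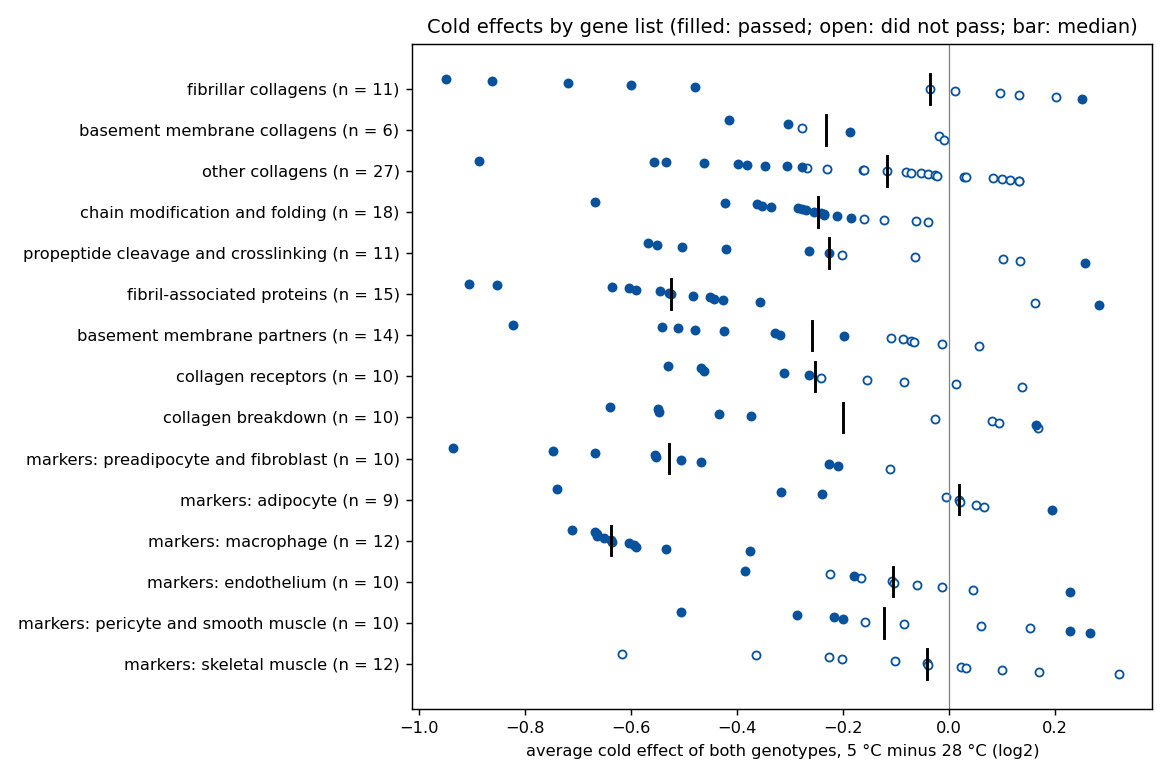
Average log2 cold effect of both genotypes (5 °C minus 28 °C) for each measured gene (points; filled, passed at an adjusted p under 0.05; open, did not pass) in the 3 collagen classes, 6 collagen-related lists and 6 lists of cell type markers, with the median as a vertical bar. Medians are -0.52 for fibril-associated proteins, -0.53 for preadipocyte and fibroblast markers and -0.64 for macrophage markers.

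Preadipocyte and fibroblast markers and macrophage markers were mostly called lower in the cold. Over all genes 6.33% were called lower and 6.88% higher in null mice, and 8.3% lower and 8.35% higher in wild-type mice. Of 10 preadipocyte and fibroblast markers, 8 were lower in cold null mice and 8 in cold wild-type mice, with medians of -0.42 and -0.58. Their mean signal was 8.90 to 9.10 in cold null mice, against 9.41 to 9.54 in null mice at 28 °C, and 8.94 to 9.18 in cold wild-type mice, against 9.49 to 9.68 at 28 °C. Pi16, a marker of fibroblast progenitors, changed by -0.88 and -0.99, and Pdgfra, a precursor receptor, by -0.39 and -0.62, whereas Thy1 was not called. All 12 macrophage markers were lower in both genotypes, with medians of -0.61 and -0.65 and mean signals of 7.78 to 7.93 in cold null mice, against 8.28 to 8.56 at 28 °C, and 7.70 to 8.02 in cold wild-type mice, against 8.32 to 8.59. The part of these markers in the collagen result was not tested.

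Markers of other cell types were called in smaller numbers, some close to those shares of all genes. Of 9 adipocyte markers 2 fell in null and 1 in wild-type mice, with 0 higher and medians of 0.07 and -0.03, and Adipoq, adiponectin, changed by -0.27 and -0.36. Of 10 endothelial markers 1 was lower and 0 higher in null mice and 1 lower and 1 higher in wild-type mice. Of 10 pericyte and smooth muscle markers 2 were lower and 0 higher in null mice and 2 lower and 2 higher in wild-type mice. The 12 skeletal muscle markers varied widely between mice, with mean signals of 6.19 to 8.90 in cold null mice, 5.62 to 7.95 in null mice at 28 °C, 6.00 to 9.35 in cold wild-type mice and 6.80 to 8.69 in wild-type mice at 28 °C, and none was called by limma in either cold effect, adjusted or at an unadjusted p under 0.05. Between the genotypes at 28 °C, null minus wild type had a median of -1.57 over these 12 muscle markers, all 12 below 0. None was called there, and 8 had an unadjusted limma p under 0.05, a share not given here for all genes. At 5 °C that median was -0.43, with 10 below 0 and none under 0.05. With the muscle score as a covariate the counts of collagen genes called for the cold effect were 14 in null mice, 14 in wild-type mice and 19 on average. All 10 B and T lymphocyte markers had estimates below 0 in both genotypes, with medians of -0.65 in null and -0.60 in wild-type mice, and none was called by limma or had an unadjusted p under 0.05 in either. Their mean signal varied widely, from 4.18 to 6.92 in cold null mice, against 4.70 to 8.03 in null mice at 28 °C, and 4.40 to 5.90 in cold wild-type mice, against 4.47 to 7.55 at 28 °C. Of 9 epithelial markers none was called by limma in either cold effect, nor had any an unadjusted p under 0.05. Of 7 Schwann cell markers 1 was lower and 1 higher in null mice and 3 lower and 1 higher in wild-type mice.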

How the data were processed

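Total RNA of inguinal white fat from 22 mice was hybridised to Affymetrix whole-transcript arrays, 1 mouse per array and 100 ng of RNA each, with an integrity number above 8 per the labels. The deposited values are log2 expression per probe set, which the authors made with RMA per the submitters' processing notes. The sources used here give no RMA version and no annotation. Nothing further was done to the 41345 probe sets. A single gene symbol was found for 23521 of them, several for 1814 and none for 16010, and the brightest one stood for each of 22180 genes.

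Genes were tested with limma (3.58.1, R 4.3.3) in 1 fit over the 4 groups (18 residual degrees of freedom), with Benjamini-Hochberg adjustment over all genes and a threshold of 0.05. Compared were cold and 28 °C within each genotype, the average and the difference of these effects, and null and wild type at each temperature. Ratios of chains were compared by exact permutation over all splits of the mice, and residual correlations by 100000 permutations within groups. Arrays have no read depth, so their number limits the precision.

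The collagen genes and the gene lists were chosen with earlier results of these data known. Of 190 listed genes 175 were measured. All collagen genes are described, and the genes named from a list are among the 4 with the smallest p in the average cold effect or were called the opposite way; Hspg2, Agrn and Thy1, not called, were added after their values were seen, and Plin1 and Fabp4 check the tissue. Alternatives were array medians subtracted, quantile normalization, filters on the dimmest 25% and 50% of genes, averaged probe sets, all probe sets, other eBayes settings, array weights, the compared groups alone, an unadjusted p under 0.001, a replicate block, the muscle score and each array left out. Promoters came from RefSeq (GRCm38.p6). The software was data.table (1.17.8), Python 3.11.15, pandas (2.3.3) and matplotlib (3.10.9).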

Additional observations from a re-analysis of the deposited data

Results flagged for a closer look

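In each group of 5 or 6 mice, the highest or lowest mouse was set against the others by Dixon's test, and 14 of 152 groups had a mouse far from the rest, where chance gives 7.6. In cold null mice, replicate 3 had the lowest Col1a1, 9.46 with the next at 9.64, and replicate 4 had the lowest Col6a2 (8.01, next 8.30) and the lowest Col18a1 (5.73, next 5.99). In null mice at 28 °C, replicate 6 had the highest Col5a1 (7.90, next 7.78), Col5a3 (8.30, next 7.90) and Col6a6 (6.31, next 6.02) and the highest mean of the cartilage markers (3.44, next 3.24). In the same group replicate 5 had the highest Col27a1 (5.11, next 4.92), replicate 4 the highest Col18a1 (6.47, next 6.28) and replicate 1 the highest mean of the Schwann cell markers (5.35, next 5.18). In cold wild-type mice, replicate 5 had the lowest Col4a5 (3.95, next 4.62) and replicate 1 the highest Col11a1 (3.91, next 3.54). In wild-type mice at 28 °C, replicate 1 had both the highest Col1a1 (10.80, next 10.55) and the highest Col1a2 (10.62, next 10.39). None of these mice was left out of the values above.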

How the results depend on the processing

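No call reversed its direction under the alternatives run. With the dimmest 50% of genes left out, the fibrillar median was -0.62 in null and -0.59 in wild-type mice and that of the other collagens -0.31 and -0.41. The basement membrane median was -0.14 and -0.06. Among the genes this filter removes are 4 fibrillar genes that were not called and the type IV chains with the larger estimated decreases, Col4a3, Col4a4 and Col4a5. The Col1a1 to Col6a1 ratio in wild-type mice was -0.34 and passed the test with the mean of the probe sets, and lay between -0.35 and -0.16 with 1 array left out. Without cold wild-type replicate 1 it was -0.35 (adjusted exact permutation p = 0.00952). The fibrillar median in wild-type mice lay between -0.14 and 0.07 with 1 array left out. The number of collagen genes called was 11 to 14 in null mice, 11 to 15 in wild-type mice and 13 to 19 on average, and 0 for the genotype effects and the difference.

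With array medians subtracted, 11 genes were lower and 2 higher in wild-type mice, against 14 and 0 as reported, 11 were lower in null mice, and 14 were lower and 1 higher on average; cold array medians were lower by 0.04 to 0.05. Calls lost under some settings concerned Col4a1, Col4a3, Col6a5, Col8a1, Col15a1, Col16a1 and Col18a1. Same-numbered mice did not deviate together: 6 of 31 such pairs had a residual correlation over 0.1 and 4 of 22 arrays were closest to their own number. With the replicate number as a block, 12 genes were called in null mice, 14 in wild-type mice and 17 on average. Precision is limited by 5 or 6 arrays per group. Signal over background was not measured here, and 24 of the 44 genes lay in the dimmer 50% of all genes.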
